A study of Homo sapiens with 16 samples.

Results

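The departure from additivity of STING loss and MAVS loss was measured in the transcriptional response of H1944 cells, an established human line from a lung adenocarcinoma, to a pulse of MPS1 inhibitor. All 16 libraries of the series entered the measurement, with 1 mean for each of 8 groups. Per the labels, the groups combined 4 genotypes with 2 treatments, each with 2 libraries. SCR cells carried the control guide and were labelled wild type, STING cells and MAVS cells were labelled knockout for 1 of these genes, and DKO cells were labelled knockout for both. MPS1i was BAY-1217389, used at 100 nM. Cells were exposed for 48 h and cultured for a further 24 h after washout. DMSO was its solvent control. Whether each line was a clone or a pool is not given in the sources used here, so a genotype and its line cannot be told apart. Of the 60612 genes in the table, 17950 had enough counts to be tested, 14113 of them protein coding.

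MPS1, encoded by TTK, is the kinase that starts the spindle assembly checkpoint. Cells that divide without it missegregate chromosomes and form micronuclei. STING is the adaptor of the cytosolic DNA sensor cGAS. MAVS is the mitochondrial adaptor of the RNA sensors RIG-I and MDA5. Both adaptors recruit TBK1 and lead to activation of IRF3 and NF-kB, so they feed the same interferon genes. Secreted interferon then acts through its receptors and transcription factors that bind the interferon-stimulated response element, and the sensors are themselves among the induced genes.

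The pulse effect of a genotype was its log2 ratio of MPS1i to DMSO libraries. The loss in a line was its pulse effect minus that of SCR cells. The additive expectation for DKO cells was the STING effect plus the MAVS effect minus the SCR effect, which is the SCR effect with both single losses taken off. Non-additivity was the observed DKO effect minus that expectation. It is negative where DKO cells responded less, or fell further, than the sum of single losses gives. Errors given as ± are standard errors (SE) from the edgeR fit over 2 libraries a group, and the threshold for a call was an adjusted p of 0.05 (edgeR's quasi-likelihood test, Benjamini-Hochberg over all 17950 genes).

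Library totals ran from 19893784 to 49769938 counts. STING1 stood at 29.1 and 28.9 CPM (counts scaled to library size) in SCR libraries after MPS1i and at 5.99 and 5.89 in STING libraries. MAVS stood at 189 and 183 CPM in SCR libraries under DMSO, 195 and 196 in MAVS libraries and 222 and 208 in DKO libraries, so its transcript level did not check the MAVS label. KRT8 (1527 to 2211 CPM over the group means), KRT18 (847 to 1120) and CDH1 (37.8 to 68.8) were present in every group. So were KRT7 (109 to 132) and MUC1 (16.4 to 24.4) of the lung markers. EPCAM was at 2.19 to 4.91 CPM, and the epithelial marker KRT19 and the lung markers NKX2-1, NAPSA and SFTPB were at or near 0. Of 7 immune markers, only CD68 exceeded 1 CPM, and NKG7 had 0 counts in all libraries. Of 6 fibroblast and endothelial markers, 3 exceeded 1 CPM: DCN (9.73 to 26.2), COL1A1 (3.55 to 7.35) and PECAM1 (1.15 to 2.43).

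The pulse response was smaller in DKO cells than in the other lines. In SCR cells 4670 genes rose (26.0% of those tested) and 4313 fell (24.0%). In STING cells 2778 rose (15.5%) and 2491 fell (13.9%), and in MAVS cells 3074 rose (17.1%) and 2927 fell (16.3%). In DKO cells 1173 rose (6.53%) and 1475 fell (8.22%). Without DKO MPS1i replicate 1 the DKO total was 1433 genes, and without STING MPS1i replicate 2 the STING total was 3364.

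Joint loss departed from the sum of single losses in 164 genes, 0.914% of those tested. The DKO effect lay below the additive expectation in 128 of them (0.713%) and above it in 36 (0.201%). At an unadjusted p under 0.05 the number was 1702 of 17950. The median SE of the contrast was 0.177 on the log2 scale for the 13883 genes averaging 1 CPM or more, and the smallest absolute value called was 0.36. Without DKO DMSO replicate 1 the numbers were 251 lower and 66 higher. Without DKO DMSO replicate 2 there were 61 higher, and without STING MPS1i replicate 2 or MAVS MPS1i replicate 2 there were 21 and 20.

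**Figure D1:**
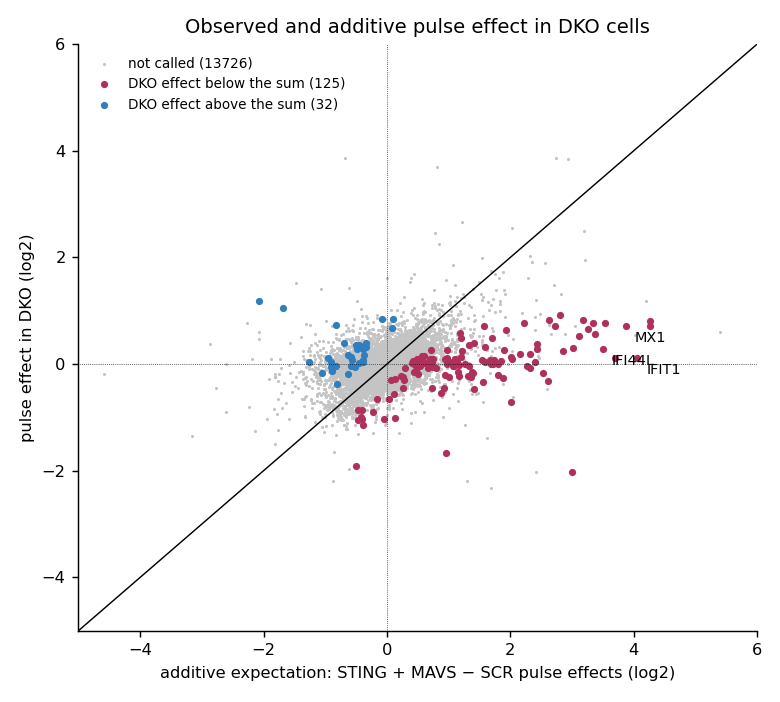
Pulse effect in DKO cells (y axis, log2 of MPS1i over DMSO) against its additive expectation from the other 3 genotypes (x axis, log2) for the 13883 genes averaging 1 CPM or more, 4 of which lie outside the axes. Each point is a gene, the solid line is equality, and of the called genes 125 lie below the line and 32 above it. Many of those below the line have an expected rise of more than 1 and an observed DKO effect near 0.

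Of the 128 genes with a DKO effect below the sum, 93 rose in SCR cells, and all 93 also rose in STING cells and in MAVS cells. In DKO cells 59 of these 93 were not called. The median pulse effect over the 128 genes was 2.03 in SCR, 1.94 in STING, 1.43 in MAVS and 0.01 in DKO cells, against a median additive expectation of 1.17. Over all tested genes the median non-additivity was -0.02. The joint loss was called in the negative direction in 99 of the 128, where it was more negative than the sum of single losses. In 20 the joint loss was called in the positive direction, where it was smaller than that sum. These directions follow partly from the choice of called genes and are given as a description.

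Genes of the interferon response made up 43 of the 128 genes below the sum. This list holds 50 antiviral and signalling genes induced by type I interferon, such as the IFIT, OAS and MX families. All 50 rose in SCR, STING and MAVS cells, with median pulse effects of 3.06, 3.05 and 2.09. In DKO cells 15 rose and 3 fell, and the median was 0.27 against an additive expectation of 2.26. Non-additivity was called negative in 43 of 50 and positive in 0, against 0.713% and 0.201% of all tested genes, with a median of -1.88. In the fits that each left out 1 library, 40 to 45 members were called negative. Bulk RNA cannot tell a smaller share of responding cells from less RNA per cell.

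IFIT1, which binds viral RNA lacking a host-type cap, showed the largest departure of the list. Under DMSO its CPM was 87.7 and 91.03 in SCR, 12.2 and 16.2 in STING, 132 and 111 in MAVS and 5.66 and 7.08 in DKO cells. After MPS1i it was 2088 and 2169 in SCR, 707 and 679 in STING, 1010.4 and 951 in MAVS and 6.74 and 7.38 in DKO cells. The MPS1i libraries lay far above the DMSO libraries in SCR, STING and MAVS cells, and the ranges overlapped only in DKO cells. The pulse effect was 4.57 ± 0.085 in SCR, 5.62 ± 0.12 in STING, 3.01 ± 0.086 in MAVS and 0.12 ± 0.17 in DKO cells. The additive expectation for DKO was 4.05, and the non-additivity was -3.94 ± 0.24 (adjusted p = 4.48e-07, edgeR).

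MX1, a GTPase that blocks viral nucleocapsids, gave the same order. Its CPM under DMSO was 156 and 149 in SCR, 28.8 and 34.7 in STING, 239.6 and 225 in MAVS and 9.33 and 10.8 in DKO cells. After MPS1i it was 2188 and 2154 in SCR, 1073 and 1069 in STING, 1438 and 1413 in MAVS and 15.1 and 18.8 in DKO cells. Each pair of MPS1i libraries was above its DMSO pair, also in DKO cells, where the effect was 0.72 ± 0.11. The expectation was 3.87 and the non-additivity -3.15 ± 0.16 (adjusted p = 2.76e-10, edgeR).

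For IFIT1, MX1 and IFI44L the pulse effect was larger in STING cells than in SCR cells on the log2 scale. For IFI44L, an interferon-induced gene of unsettled function, it was 2.76 ± 0.049 in SCR and 4.28 ± 0.064 in STING cells. The DMSO libraries of STING cells stood at 16.9 and 18.9 CPM of IFI44L and those of SCR cells at 92.1 and 97.4. After MPS1i the values were 353 and 340.0 CPM in STING cells and 635 and 651 in SCR cells. The STING libraries were lower than the SCR libraries under both treatments, and by the larger factor under DMSO. Over the list, the loss in STING cells was called positive in 21 of 50 genes and negative in 14, while the loss in MAVS cells was negative in 49 and positive in 0. Of all 17950 tested genes, the STING loss was called positive in 1790 and negative in 1714. The MAVS loss was called positive in 524 of them and negative in 812. IFI44L in DKO cells stood at 6.46 and 7.02 CPM under DMSO and 8.02 and 8.61 after MPS1i, and its non-additivity was -3.21 ± 0.13 (adjusted p = 1.22e-14, edgeR).

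**Figure D2:**
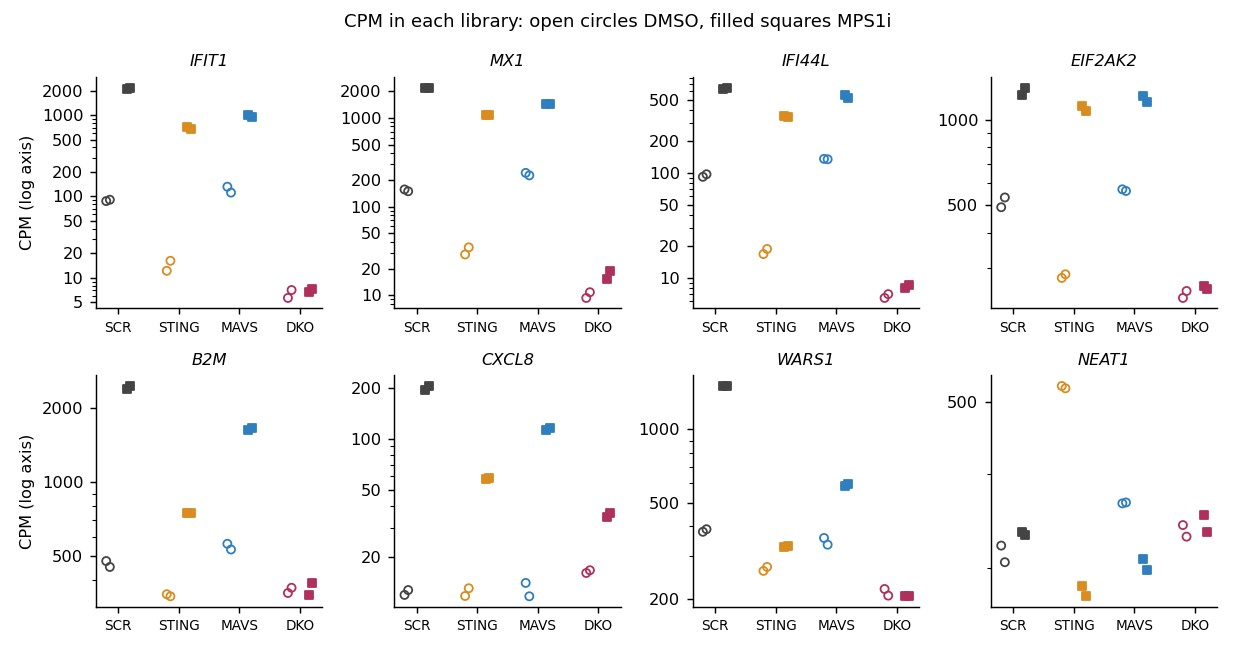
CPM (y axis, log scale, own range in each panel) of 8 genes in all 16 libraries, by genotype (x axis), with DMSO libraries as open circles and MPS1i libraries as filled squares. IFIT1, MX1 and IFI44L are lower under DMSO in STING cells than in SCR cells, and in those 3 panels the DKO libraries of both treatments are the lowest.

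The other strong members were OAS2 (-2.75 ± 0.11) and OAS3 (-2.39 ± 0.088), which make the activator of RNase L. IFIT3 (-3.58 ± 0.21) and IFIT2 (-2.71 ± 0.25) are partners of IFIT1. OASL stood at -2.56 ± 0.25 and EIF2AK2, the RNA-activated kinase PKR, at -1.65 ± 0.10. CMPK2, a mitochondrial nucleotide kinase, stood at -3.46 ± 0.47, and XAF1, a pro-apoptotic factor, at -2.80 ± 0.39. XAF1 and CMPK2 each missed the threshold in 1 fit without a library, DKO DMSO replicate 2, where XAF1 stood at -2.23 and CMPK2 at -3.46. IFI6, a mitochondrial survival protein, stood at -2.59 ± 0.40 (adjusted p = 0.0227, edgeR) and missed it in 12 of the 16 fits that each left out 1 library. The 7 members not called were IFITM1, IFITM2, ISG20, LGALS3BP, MX2, RSAD2 and RTP4. Among them MX2 stood at -2.35 ± 1.01, with DKO libraries at 0.344 and 0.167 CPM under DMSO and 0.407 and 0.378 after MPS1i, and IFITM1 stood at -1.54 ± 0.49 (adjusted p = 0.233). Without MAVS DMSO replicate 1 the adjusted p of MX2 was 0.000938, and without STING DMSO replicate 2 that of IFITM1 was 0.0478.

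**Figure D3:**
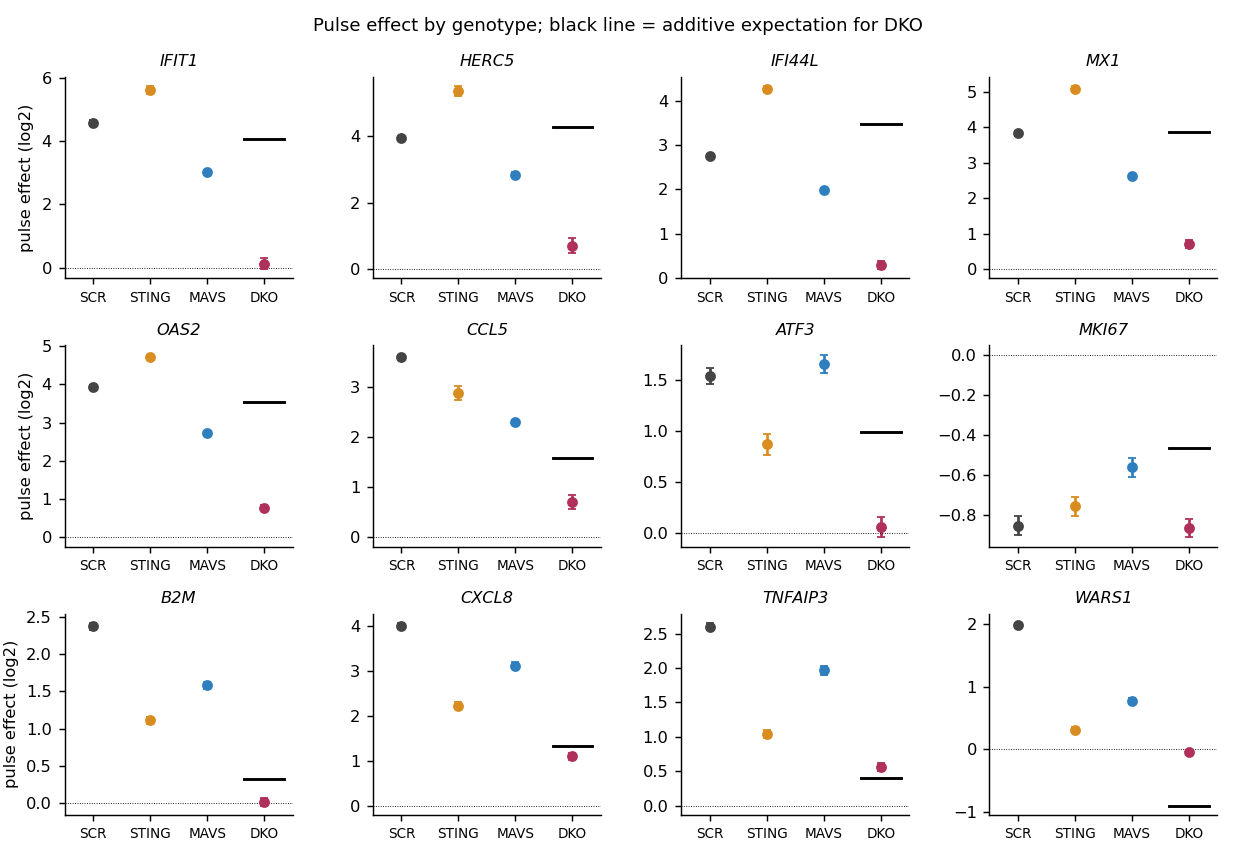
Pulse effect (y axis, log2 of MPS1i over DMSO, own range in each panel) of 12 genes by genotype (x axis), with SE bars from the edgeR fit. The black line at the DKO position is the additive expectation. The DKO point lies below the line for the 8 genes of the upper 2 rows, within 0.31 of it for B2M, CXCL8 and TNFAIP3, and above it for WARS1.

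Interferon-response genes were already non-additive in DMSO cells. The same sum over genotypes was taken on the levels under each treatment, as DKO minus STING minus MAVS plus SCR, and the pulse contrast is the MPS1i value minus the DMSO value. Under DMSO, 229 genes were called lower (1.28%) and 187 higher (1.04%). After MPS1i, 454 were lower (2.53%) and 255 higher (1.42%). Of the 50 interferon-response genes, 36 were lower under DMSO and 48 after MPS1i, with medians of -0.76 and -2.93. MX1 stood at -2.25 ± 0.12 under DMSO and -5.39 ± 0.11 after MPS1i. IFI27 had -2.74 under DMSO and -4.62 after MPS1i, and IFIT1 had -1.57 and -5.51. Among the 128 genes lower in the pulse contrast, 46 were lower under both treatments, 65 were lower after MPS1i with DMSO not called, and 10 were higher under DMSO. The number of genes higher under DMSO depended on single libraries, from 61 without MAVS DMSO replicate 1 to 528 without DKO DMSO replicate 1. The number lower under DMSO was 365 without DKO DMSO replicate 1, and the number higher after MPS1i was 135 without SCR MPS1i replicate 2.

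The promoters of 6 genes are shown because they set genes called non-additive beside genes that were not called. They were chosen among genes that hold a searched motif. Each is a stretch of 120 bases before the RefSeq start site (GRCh38.p14, + strand, 5′ to 3′), with motif matches in capitals. IFIT1 (chr10:89392470-89392589), IFIT3 (chr10:89327825-89327944), HERC5 (chr4:88456994-88457113) and IFI44L (chr1:78620325-78620444) were called negative. B2M (chr15:44711342-44711461) and TNFAIP3 (chr6:137867139-137867258) were not called. The capitals mark the core of the interferon-stimulated response element, GAAANNGAAA, or the NF-kB core, GGGANNTTCC, on either strand, and adjoining matches overlap in HERC5 and B2M. CMPK2, XAF1 and THEMIS2, also called negative, held none of the searched motifs, and DDX58 held the NF-kB core alone.
IFIT1: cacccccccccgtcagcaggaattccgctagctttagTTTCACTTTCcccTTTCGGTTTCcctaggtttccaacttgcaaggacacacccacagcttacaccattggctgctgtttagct
IFIT3: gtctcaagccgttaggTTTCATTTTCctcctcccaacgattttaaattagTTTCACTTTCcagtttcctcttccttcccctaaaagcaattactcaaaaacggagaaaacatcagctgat
HERC5: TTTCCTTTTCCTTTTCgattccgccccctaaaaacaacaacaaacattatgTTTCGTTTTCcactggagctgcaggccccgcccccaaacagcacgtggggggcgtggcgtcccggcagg
IFI44L: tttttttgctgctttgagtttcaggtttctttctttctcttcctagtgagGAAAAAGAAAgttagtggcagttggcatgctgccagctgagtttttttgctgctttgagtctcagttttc
B2M: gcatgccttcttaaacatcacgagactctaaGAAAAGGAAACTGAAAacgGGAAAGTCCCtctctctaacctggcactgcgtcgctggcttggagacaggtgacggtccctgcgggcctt
TNFAIP3: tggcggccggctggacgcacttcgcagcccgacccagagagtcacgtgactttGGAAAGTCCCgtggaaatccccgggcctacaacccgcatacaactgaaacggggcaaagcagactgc

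HERC5, the ligase that attaches ISG15 to new proteins, had a non-additivity of -3.55 ± 0.29 (adjusted p = 8.11e-09, edgeR). Of the 128 genes called negative, 103 matched a RefSeq promoter of 300 bases by symbol, and 34 of these (33.0%) held the response element core. The share was 3.65% of all 27305 promoters and 3.05% of the 11897 tested genes with a promoter. Among called-negative genes that rose in SCR cells it was 34 of 74 (45.9%), and among the others 0 of 29. It was 26 of 41 (63.4%) for the interferon-response list, and 12 of 67 (17.9%) for called-negative genes outside that list. Among genes that rose at least 2-fold in SCR cells and were not called, 67 of 849 (7.89%) held it. The NF-kB core stood in 3 of the 103 (2.91%) against 1.56% of tested genes and 1.63% of all promoters, and the ATF4 core TGATGNAA in 2 (1.94%) against 1.87% and 3.67%. These are matches of letters, with no binding measured.

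Of 23 tested genes of nucleic acid sensing, 6 were called negative, 0 positive and 17 were not called, against 0.713% and 0.201% of all tested genes called negative and positive. The median over the 21 with counts in every group was -0.29. DDX58, which encodes RIG-I, stood at 1223 and 1330.2 CPM in SCR cells after MPS1i, 488 and 471 in STING, 732 and 712 in MAVS and 42.4 and 37.8 in DKO cells. Under DMSO it stood at 112 and 125 in SCR, 43.5 and 43.4 in STING, 148 and 146 in MAVS and 32.9 and 37.8 in DKO cells. DKO libraries lay close together under both treatments, while those of the other genotypes were far apart. Its pulse effect in DKO cells was 0.18 ± 0.073 against an expectation of 2.32, a non-additivity of -2.14 ± 0.13 (adjusted p = 1.1e-10, edgeR). IFIH1, which encodes MDA5, had -2.30 ± 0.15, SAMHD1, a dNTPase, -2.02 ± 0.14, DHX58, the regulator LGP2, -1.60 ± 0.27, ADAR, the RNA editor that masks self RNA, -0.85 ± 0.078, and TRIM56, a ligase, -0.60 ± 0.12. CGAS, the DNA sensor, was not called (0.13 ± 0.16, 95% interval -0.21 to 0.47), nor were STING1 (0.058 ± 0.22, -0.40 to 0.52) and MAVS (-0.29 ± 0.091, -0.48 to -0.10). Without DKO DMSO replicate 2, MAVS passed with -0.34 (adjusted p = 0.04, edgeR).

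The interferon and chemokine genes themselves could be tested less well. IFNB1, the first interferon made downstream of both adaptors, had 4.64 and 5.06 CPM in SCR libraries after MPS1i. In STING libraries it had 0.191 and 0.658, in MAVS libraries 0.179 and 0.210 and in DKO libraries 0 counts. IFNL1, a type III interferon, had 12.99 and 11.6 CPM in SCR, 0.953 and 1.004 in STING and 1.25 and 1.68 in MAVS libraries after MPS1i and 0 counts in the DKO libraries. At 3 counts the detection floor of the DKO MPS1i libraries was 0.0871 and 0.142 CPM. Both genes were highest in SCR cells and at or near the floor under DMSO, so no fold in DKO cells is given. CXCL10, which attracts T cells, was at 38.9 and 42.5 CPM in SCR cells after MPS1i and at 0.000 and 0.142 in DKO cells. Of 14 tested genes of this list, 1 was called negative on the log2 scale, the chemokine CCL5. On differences of CPM in place of log2 ratios (limma), 10 of the 14 lay above the sum and 0 below it. Of all tested genes 1.42% lay above and 0.329% below. Expected changes in DKO cells were -34.1 CPM for CXCL10, -9.76 for IFNL1 and -4.23 for IFNB1, with DKO levels under DMSO at or near 0. No measured change can reach those falls, so upward departures were set by the other lines. The same held for CCL5, with an expectation of -122 CPM against a DKO level of 2.56 CPM under DMSO. Its CPM was 28.8 and 29.9 in SCR, 1.89 and 2.63 in STING, 48.9 and 47.2 in MAVS and 2.87 and 2.25 in DKO cells under DMSO and 347 and 359 in SCR, 16.3 and 16.4 in STING, 234 and 238 in MAVS and 4.21 and 3.97 in DKO cells after MPS1i. The MPS1i libraries exceeded the DMSO libraries in each genotype. The non-additivity of CCL5 was -0.86 ± 0.21 (adjusted p = 0.0404, edgeR), and it missed the threshold in 13 of the 16 fits that each left out 1 library, where it ran from -1.08 to -0.62.

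Of 20 antigen presentation genes, all rose in SCR cells, 2 rose in DKO cells and 2 departed from the sum on the log2 scale. Of all tested genes 26.0% rose in SCR cells, 6.53% rose in DKO cells and 0.914% departed. On differences of CPM 11 of the 20 lay above the sum and 0 below it, against 1.42% and 0.329% of all tested genes. Of the 254 tested genes above the sum in CPM, 142 had an expected fall larger than their DKO level under DMSO. No measured change can reach such a fall. NLRC5, the transactivator of class I genes (-0.93 ± 0.17, adjusted p = 0.00345, edgeR), and PSMB9, an immunoproteasome subunit (-1.30 ± 0.27, adjusted p = 0.0103), were called negative, and PSMB9 missed the threshold in 2 of the 16 fits that each left out 1 library (without STING DMSO replicate 2, -1.07, and without DKO MPS1i replicate 1, -1.17). PSMB9 overlaps other tested genes and its antisense partner. For NLRC5 and PSMB9 the expected fall in CPM was larger than the DKO level under DMSO, so their upward departures in CPM were set by the other lines. B2M, the light chain of class I molecules, was not called. Its CPM after MPS1i was 2379.6 and 2457 in SCR, 753 and 751 in STING, 1629 and 1662 in MAVS and 349 and 389 in DKO cells, and under DMSO 479 and 453 in SCR, 351 and 345 in STING, 563 and 534 in MAVS and 356 and 373 in DKO cells. The treatments overlapped only in DKO cells. Its pulse effect was 2.37 ± 0.048 in SCR, 1.11 ± 0.049 in STING, 1.58 ± 0.048 in MAVS and 0.015 ± 0.049 in DKO cells, and the 95% interval of its non-additivity was -0.51 to -0.10 around -0.31 (adjusted p = 0.19). Without DKO DMSO replicate 1 B2M passed with -0.36 (adjusted p = 0.0361, edgeR).

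Of 18 genes of the interferon-gamma type, including the guanylate-binding proteins, 3 were called negative and 1 positive, against 0.713% and 0.201% of all tested genes. APOL6 had -1.38 ± 0.091, BATF2, a transcription factor, -1.81 ± 0.35, and APOL1 -0.45 ± 0.10. WARS1, the cytosolic tryptophanyl-tRNA synthetase, went the other way. Its CPM was 379 and 388 in SCR, 261 and 271 in STING, 357 and 335 in MAVS and 220.2 and 207 in DKO cells under DMSO and 1509 and 1504 in SCR, 329 and 329.9 in STING, 586 and 595 in MAVS and 207 and 205 in DKO cells after MPS1i. Its pulse effect was 1.97 ± 0.043 in SCR, 0.31 ± 0.045 in STING, 0.77 ± 0.044 in MAVS and -0.051 ± 0.045 in DKO cells. The treatments were apart in SCR, STING and MAVS cells and close in DKO cells. The single losses together exceeded the SCR effect, so the expectation was -0.90 and the non-additivity 0.85 ± 0.089 (adjusted p = 4.48e-07, edgeR). TRAFD1, a negative regulator of innate signalling, had 0.93 ± 0.18 with pulse effects of 1.98 in SCR, 0.51 in STING, 0.57 in MAVS and 0.03 in DKO cells.

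**Figure D4:**
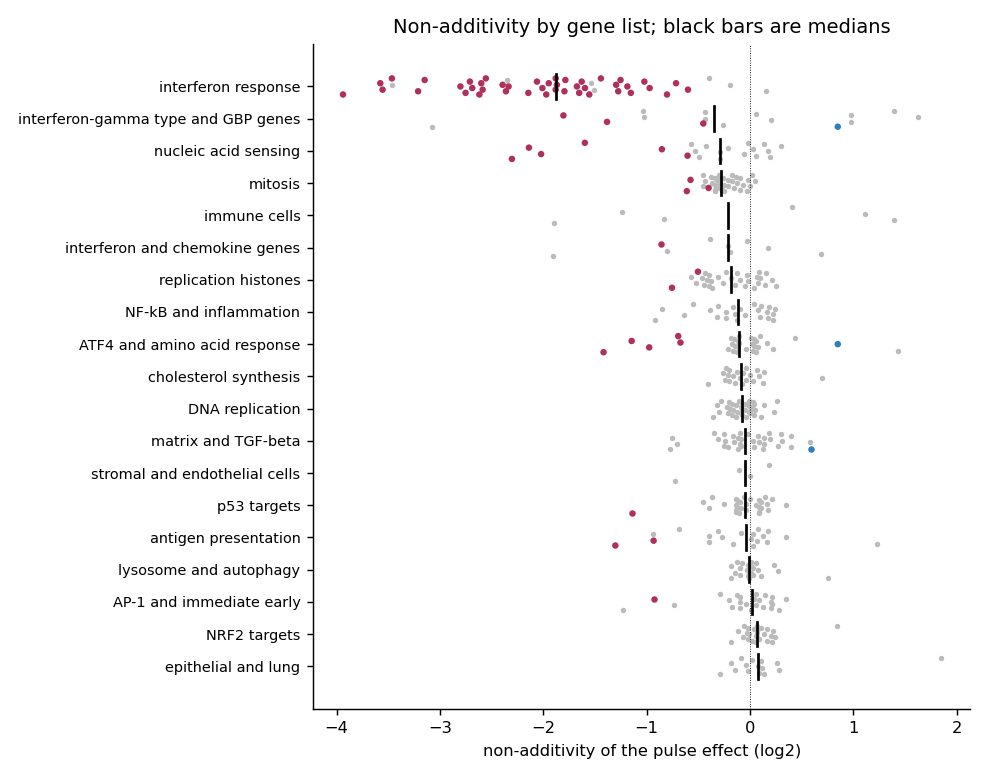
Non-additivity of the pulse effect (x axis, log2) of the tested members of 19 gene lists (y axis), leaving out members with a group at 0 counts. Each point is a gene, called genes are in red (negative) or blue (positive), and black bars are medians; the interferon-response list has a median of -1.88 and the next lowest median is -0.35.

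Fewer inflammatory genes driven by NF-kB rose in DKO cells than in the other lines, without a called departure from the sum on the log2 scale. All 24 tested members of this list rose in SCR cells, 22 in STING, 24 in MAVS and 11 in DKO cells, against 26.0%, 15.5%, 17.1% and 6.53% of all tested genes. The number called non-additive was 0 of 24 against 0.914% of all tested genes, and the median was -0.11. On differences of CPM 3 of the 24 lay above the sum, against 1.42% of all tested genes. Among the 3 was CXCL8, by 59.1 ± 6.92 CPM (adjusted p = 2.8e-06, limma). Its expected change in DKO cells was -40.1 CPM, against a DKO level of 16.5 CPM under DMSO. No measured change can reach that fall, so an upward departure was set by the other lines. CXCL8, the neutrophil chemokine IL-8, had CPM of 12.04 and 12.9 in SCR, 11.9 and 13.2 in STING, 14.2 and 11.8 in MAVS and 16.2 and 16.8 in DKO cells under DMSO and 193 and 204 in SCR, 57.999 and 58.4 in STING, 112 and 115 in MAVS and 34.7 and 36.3 in DKO cells after MPS1i. The treatments did not overlap in any genotype. Its pulse effect of 1.10 ± 0.073 in DKO cells stood beside an expectation of 1.33, with a 95% interval of -0.54 to 0.07 for the difference. For TNFAIP3, the NF-kB feedback inhibitor A20, the effect was 0.56 ± 0.061 against 0.40 (interval -0.084 to 0.40). For BIRC3, an inhibitor of apoptosis induced by NF-kB, it was 0.14 ± 0.052 against 0.19 (-0.26 to 0.17).

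Most genes whose response differed from SCR cells in all 3 lines, in 1 direction, were not called non-additive. All 3 losses were called negative in 653 genes, and in 608 of them non-additivity was not called, with 36 called negative and 9 positive. All 3 were called positive in 459, with 438 not called, 20 called negative and 1 positive. Of all tested genes 0.713% were called negative and 0.201% positive. Of the 1492 genes that rose at least 2-fold in SCR cells, 83 were called negative and 11 positive. Their median SE of the contrast was 0.63 on the log2 scale, so a gene not called may still depart. In 382 genes the joint loss was at least 1 in size on the log2 scale and the 3 losses were called in 1 direction with no called departure. Examples were picked for the smallest SE of the contrast. Among them were C1S, a complement protease (DKO effect -0.012, expectation -0.088, interval of the difference -0.10 to 0.25), and HMGCS1, a sterol synthesis enzyme (-0.18, -0.039, -0.32 to 0.029). SOD2, the mitochondrial superoxide dismutase, had -0.11 against 0.049 (-0.33 to 0.0073). XPOT, a tRNA exporter that fell in SCR cells by 1.12, had -0.10 against -0.06 (-0.21 to 0.13). SAR1A, a GTPase of vesicle transport, had 0.13 against -0.12, and its interval of 0.075 to 0.41 did not include 0. PSAT1, a serine synthesis enzyme, fell in every line. Its CPM was 724 and 715 in SCR, 509 and 507 in STING, 596 and 651 in MAVS and 336 and 353 in DKO cells under DMSO and 96.6 and 100.2 in SCR, 162 and 169 in STING, 159 and 157 in MAVS and 208 and 196 in DKO cells after MPS1i, with MPS1i libraries lower in each genotype. The DKO effect was -0.77 ± 0.048 against -0.73 (interval -0.24 to 0.16).

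Of the 128 negative genes, 28 had fallen in SCR cells. They included genes of mitosis. All 38 mitosis genes fell in every genotype, and 3 were called negative: CENPF, a kinetochore protein (-0.58 ± 0.12), KIF20A, a cytokinesis kinesin (-0.61 ± 0.13), and the proliferation marker MKI67 (-0.40 ± 0.094). Of all tested genes 24.0% fell in SCR cells, 8.22% fell in DKO cells and 0.713% were called negative. The CPM of MKI67 was 898 and 901 in SCR, 769.5 and 784 in STING, 694 and 756 in MAVS and 839.6 and 903 in DKO cells under DMSO and 502 and 494 in SCR, 460.4 and 459 in STING, 475 and 506 in MAVS and 472 and 485 in DKO cells after MPS1i. The MPS1i libraries were lower in each genotype, and the DKO effect of -0.87 ± 0.047 was near the SCR effect of -0.85 ± 0.047, while the expectation was -0.46. MKI67 (adjusted p = 0.0337, edgeR) missed the threshold in 12 of the 16 fits that each left out 1 library, KIF20A in 7 and CENPF in 5. Under DMSO 17 of the 38 were called higher in the sum of levels, and after MPS1i 1 was. TTK, the target of the inhibitor, was not called (-0.26 ± 0.15). The linker histones H1-2 (-0.50 ± 0.11) and H1-3 (-0.76 ± 0.14) were called negative of 31 histone genes, against 0.713% of all tested genes, and H1-2 missed the threshold in 11 of those 16 fits.

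Targets of the amino acid response factor ATF4 fell in SCR cells (28 of 31, with 3 rising), and 5 were called negative and 1, WARS1, positive, against 0.713% and 0.201% of all tested genes. SESN2, a stress-induced inhibitor of mTORC1 that p53 also induces, fell by 0.96 in SCR cells, 0.36 in STING, 0.47 in MAVS and 1.01 in DKO cells. The DKO fall was near the SCR fall in size, and both single lines fell less, so the expectation was 0.13 and the non-additivity -1.15 ± 0.17 (adjusted p = 0.00016, edgeR). SESN2 libraries of DKO cells had 28.6 and 24.5 CPM under DMSO and 13.2 and 13.01 after MPS1i. STC2, a secreted glycoprotein, had -0.69 ± 0.10, DDIT4 -0.67 ± 0.11, the transcription factor DDIT3 -0.98 ± 0.20 and CHAC1, which degrades glutathione, -1.42 ± 0.30. Of 30 p53 targets SESN2 was the 1 called. ATF3, an immediate early stress factor and the 1 called of 25 AP-1 genes, rose by 1.54 in SCR and 1.66 in MAVS cells but by 0.87 in STING cells, and its DKO effect was 0.059 ± 0.10 (non-additivity -0.93 ± 0.18). Without DKO MPS1i replicate 1 ATF3 stood at -0.80 and missed the threshold (adjusted p = 0.0528).

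No member was called among 37 DNA replication genes, 26 NRF2 targets, 22 cholesterol synthesis genes, 23 lysosome and autophagy genes or 15 epithelial and lung genes, against 0.914% of all tested genes, so lists of this size may hold 0 calls at the background share. At this precision that leaves departures the size of an interval, such as -0.22 to 0.21 for PCNA, the replication clamp, and -0.081 to 0.25 for TXNRD1, an NRF2 target. Among 35 matrix genes 1 was called positive, PLAUR, the urokinase receptor (0.59 ± 0.14), which missed the threshold in 12 of the 16 fits that each left out 1 library. The 6 tested immune genes and 4 stromal genes had 0 calls.

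Outside all lists were 62 of the 128 negative genes. Several of these, picked after their values were seen, are known as genes induced by interferon. TRANK1 had -2.15 ± 0.16, TRIM34 -1.89 ± 0.20, TRIM14, which acts with MAVS, -1.71 ± 0.11, the mitochondrial RNA-degrading enzyme PNPT1 -1.54 ± 0.13, DDX60L -1.47 ± 0.11, TDRD7 -1.38 ± 0.11, the nuclear body protein SP100 -1.06 ± 0.12 and ZNFX1, an RNA helicase, -0.97 ± 0.11. Others fell in SCR cells and had a joint loss smaller than the sum. PDK3, a kinase of pyruvate dehydrogenase, had pulse effects of -1.79 in SCR, -0.45 in STING, -1.08 in MAVS and -0.24 in DKO cells and a non-additivity of -0.50 ± 0.095. PRKCA, protein kinase C alpha, had -1.48 in SCR, -0.26 in STING, -0.73 in MAVS and -0.02 in DKO cells and -0.51 ± 0.10, and NUDT3 had -1.42 in SCR, -0.17 in STING, -0.76 in MAVS and -0.061 in DKO cells and -0.55 ± 0.094. Of the 128, 47 overlap another tested gene, and RP11-326C3.17, which had -5.02 ± 1.15, overlaps IFITM1 and IFITM2. THEMIS2, an immune signalling adaptor, had -2.92 ± 0.62. RP11-326C3.17 missed the threshold in 3 and THEMIS2 in 4 of the 16 fits without a library.

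Among the 36 positive genes were WARS1, of the interferon-gamma type and ATF4 lists, and PLAUR, of the matrix list. Of the 36, 15 were protein coding and 34 were in no list. In STING cells 23 of them fell in the pulse, while 24 rose in SCR cells. NEAT1, the long noncoding RNA that builds paraspeckles, had a CPM of 322 and 306 in SCR, 524 and 521 in STING, 366 and 367 in MAVS and 343 and 331 in DKO cells under DMSO and 336 and 333 in SCR, 284 and 275 in STING, 309 and 298 in MAVS and 353 and 335 in DKO cells after MPS1i. The STING libraries were the highest under DMSO and the lowest after MPS1i, and the other genotypes stayed between. Its pulse effect was 0.091 ± 0.044 in SCR, -0.90 ± 0.044 in STING, -0.27 ± 0.044 in MAVS and 0.032 ± 0.044 in DKO cells, and its non-additivity 1.30 ± 0.088 (adjusted p = 1.11e-10, edgeR). MALAT1, another nuclear noncoding RNA, had 0.55 ± 0.10 with 0.28 in SCR, -0.61 in STING, 0.31 in MAVS and -0.032 in DKO cells. HELLPAR, a long noncoding RNA, had 0.89 ± 0.16 with a STING effect of -1.37. MTCO1P12, a nuclear copy of a mitochondrial gene that may take reads of the mitochondrial original, had 0.77 ± 0.10 with 0.40 in SCR, -0.17 in STING, 0.14 in MAVS and 0.34 in DKO cells. Pseudogenes of other mitochondrial genes, MTCO2P12 (0.66 ± 0.13), MTCO3P12 (0.67 ± 0.10) and MTND4P12 (0.82 ± 0.15), were also called, and MTND2P28 was not (0.61 ± 0.15, adjusted p = 0.0993). MTCO2P12 missed the threshold in 7 of the 16 fits without a library, and MTND2P28 passed in 2, without either SCR DMSO library.

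Several coding genes among the 36 responded less in both single lines than in SCR cells. MXD1, a MYC antagonist, had 1.90 in SCR, 0.23 in STING, 1.17 in MAVS and 0.35 in DKO cells and 0.85 ± 0.17. C4B, a complement component nearly identical to C4A, had 2.79 in SCR, 0.94 in STING, 1.15 in MAVS and 0.40 in DKO cells and 1.10 ± 0.23, and its reads may be shared with C4A. The value of C4A had the opposite sign, -1.84 ± 0.52, and was not called (adjusted p = 0.0975, edgeR). GABRE, a GABA receptor subunit, had 1.93 in SCR, 0.76 in STING, 1.08 in MAVS and 0.84 in DKO cells and 0.93 ± 0.22. ACO1, an iron-regulated aconitase, fell by 2.68 in SCR, 1.15 in STING and 2.04 in MAVS cells. Its DKO effect was -0.051 ± 0.052, above an expectation of -0.51. GABRE missed the threshold in 12 of the 16 fits that each left out 1 library, and C4B in 3 (without STING MPS1i replicate 1, MAVS DMSO replicate 1 or DKO MPS1i replicate 1).

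Whether losses add depends on the scale, so the same contrast was taken on differences of CPM (limma on unlogged CPM). On that scale 254 genes were called above the sum (1.42%) and 59 below it (0.329%), the reverse of the log2 split of 36 above and 128 below. Of the 128 genes negative on the log2 scale, 42 were below the sum in CPM, 18 above it and 68 not called. All 36 positive genes were above it. Without SCR MPS1i replicate 1 the numbers above the sum and of genes called opposite ways were 139 and 10. Without DKO DMSO replicate 1 there were 163 below, and without SCR MPS1i replicate 2 there were 134 above and 38 below.

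Of the 254 genes above the sum, 228 rose in SCR cells, and in all 228 the 2 single losses of CPM exceeded the SCR rise, so that the additive expectation for DKO was a fall. In 135 of the 228, and in all 18 genes called opposite ways, the expected fall was larger than the DKO level under DMSO, which no measured change can reach. An upward departure of at least the difference was then set by the other lines. IFIT2 was 1 of the 18 genes called opposite ways. Its change in CPM after the pulse was 2623 in SCR, 382 in STING, 726 in MAVS and 2.003 in DKO cells. The expectation was -1515 CPM, against a DKO level of 8.28 CPM under DMSO, and the departure 1517 ± 121 CPM (adjusted p = 7.13e-06, limma), against -2.71 ± 0.25 on the log2 scale. IFIT1 departed by 502 ± 93.000 CPM and IFIT3 by 620.0 ± 73.9. B2M, with a change in CPM of 1952 in SCR, 404 in STING, 1097 in MAVS and 4.31 in DKO cells, departed by 455 ± 77.8 CPM (adjusted p = 0.000657, limma) and was not called on the log2 scale. Its expectation was -451 CPM, against a DKO level of 364 CPM under DMSO, so part of this departure was set by the other lines. WARS1 departed upward on both scales, by 809 ± 39.7 CPM, and its expected fall in CPM was also larger than its DKO level under DMSO.

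EIF2AK2 was below the sum on both scales. Its change in CPM was 746 in SCR, 814 in STING, 622 in MAVS and 13.96 in DKO cells. The change in STING cells was not smaller than in SCR cells, and the DKO change was close to 0. The expectation was 690.5 CPM and the departure -676 ± 54.05 CPM (adjusted p = 3.39e-09, limma). ADAR departed by -492 ± 64.1 CPM, OAS3 by -353 ± 45.6 and IFI44L by -180.5 ± 22.5. In the interferon-response list 14 genes were below the sum in CPM and 13 above it, against 0.329% and 1.42% of all tested genes. The log2 sign for that list is therefore a statement about fold changes. The mitosis genes CENPF (-152 ± 28.5 CPM) and MKI67 (-244 ± 45.9 CPM) were below the sum on both scales.

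**Figure D5:**
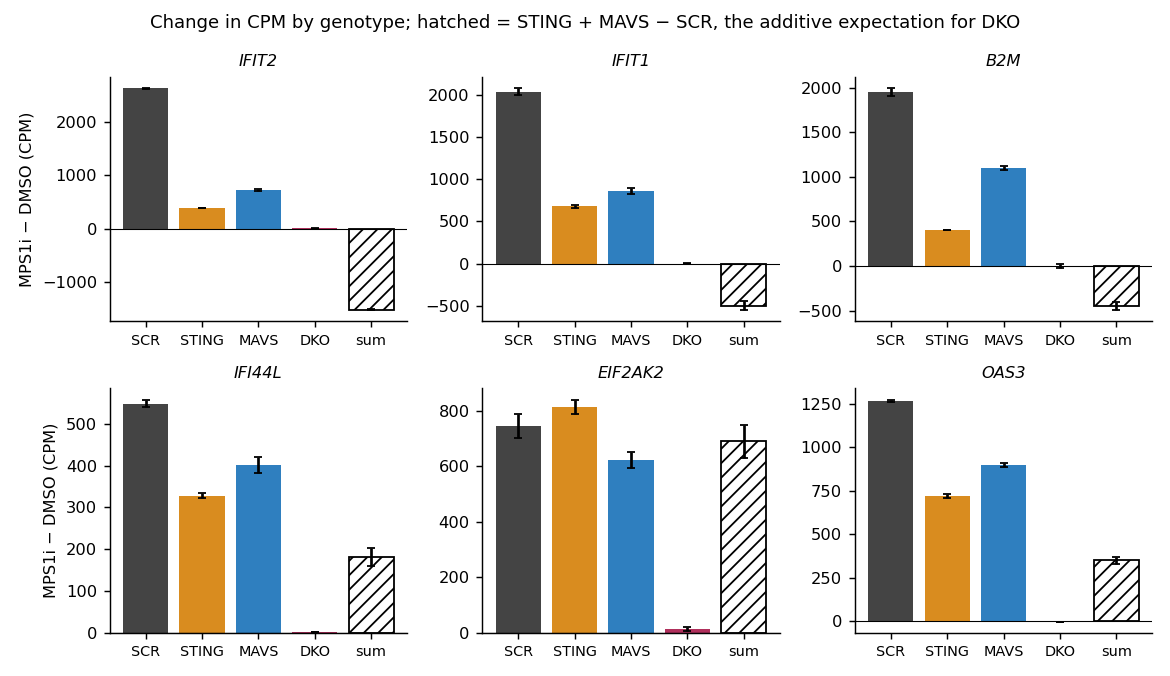
Change in CPM after the pulse (y axis, MPS1i mean minus DMSO mean, bars from 0) in the 4 genotypes and the additive expectation for DKO (hatched), with SE bars from the SD of 2 libraries a group. For IFIT2, IFIT1 and B2M the expectation is below 0 and the DKO change lies above it. For IFI44L, EIF2AK2 and OAS3 it is above 0 and the DKO change lies below it.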

How the data were processed

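RNA of 16 libraries was analysed from raw counts per gene. The deposited values are whole-number counts with no normalization, per the file headers, with 1 column per library matched by name. Libraries came from poly(A)-selected RNA, per the labels' protocols, and were stranded QIAseq preparations converted for DNBSEQ. The submitters' processing notes name Trim Galore, cutadapt, Trimmomatic, STAR, featureCounts and GRCh38/hg38; versions, strand setting and the handling of multiply mapped reads are not given in the sources used here. Overlapping, antisense and near-identical genes may therefore share reads.

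Genes were kept by filterByExpr (minimum count 10, minimum total 15). These hold 99.93% or more of every library. R 4.3.3 and edgeR 4.0.16 (TMM, robust quasi-likelihood F-test, two-sided) fitted 1 mean per group, with 8 residual degrees of freedom. CPM differences were tested with limma 3.58.1 on unlogged CPM, weighted by the fitted negative binomial variance. Both fits were run on simulated data. The CPM simulation set changes only in genes whose expected DKO level was positive, so it does not cover expected falls beyond the DKO level. Intervals are at the 95% level and, like the floor of 3 counts, cover these libraries only. Nothing in the labels says that replicates came from separate cultures, so the spread behind each p-value may be technical. Alternatives were RLE scaling, other filters, thinning to equal depth, a replicate block, limma-voom, DESeq2 1.42.0, no weights, and leaving out each library.

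Genes were named by a written rule: 16 fixed genes, the 10 lowest and 10 highest called values, the 5 lowest and 5 highest of each other contrast, up to 3 called members of each of 19 lists, genes called opposite ways on the 2 scales, and examples of loss with no called departure. The text does not print every gene that this rule names, and 1 item is not reported here. Others are said to be picked or are list members. The contrast and lists were chosen with earlier results of these data known. Promoters are RefSeq windows (GRCh38.p14) of 300 bases, from 250 before to 50 after the start, matched by symbol.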

Additional observations from a re-analysis of the deposited data

Results flagged for a closer look

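The contrast is itself a test of whether the DKO response to the pulse departs from the sum of single losses. Each called value is a departure that passed its own test. It is not a test of whether responses differ between genotypes: the joint loss against SCR cells was called in 5021 genes. There were 128 genes below the additive expectation and 36 above it (edgeR, adjusted p under 0.05). Among the genes named by rule, the departures below the sum on the log2 scale were RP11-326C3.17 -5.02, IFIT1 -3.94, IFIT3 -3.58, HERC5 -3.55, CMPK2 -3.46, IFI44L -3.21, MX1 -3.15, THEMIS2 -2.92, XAF1 -2.80, OAS2 -2.75, IFIT2 -2.71, IFI6 -2.59, OASL -2.56, OAS3 -2.39, IFIH1 -2.30, DDX58 -2.14, SAMHD1 -2.02, IFI27 -1.88, BATF2 -1.81, SAMD9L -1.67, EIF2AK2 -1.65, APOL6 -1.38, PSMB9 -1.30, SESN2 -1.15, TRIM22 -1.02, ATF3 -0.93, NLRC5 -0.93, CCL5 -0.86, ADAR -0.85, H1-3 -0.76, STC2 -0.69, KIF20A -0.61, CENPF -0.58, H1-2 -0.50 and MKI67 -0.40. Those above the sum were CTD-2270P14.2 3.25, AP000295.9 2.72, RTCA-AS1 1.55, NEAT1 1.30, C4B 1.10, STAG3L5P-PVRIG2P-PILRB 1.07, TRAFD1 0.93, GABRE 0.93, HELLPAR 0.89, WARS1 0.85, MTCO1P12 0.77, MTCO2P12 0.66, PLAUR 0.59 and MALAT1 0.55. CTD-2270P14.2, AP000295.9 and RTCA-AS1 had means of 1.30, 3.66 and 3.14 CPM, and AP000295.9 overlaps IFNAR2 and IL10RB. In the 16 fits that each left out 1 library, RTCA-AS1 missed the threshold in 11, STAG3L5P-PVRIG2P-PILRB in 10 and CTD-2270P14.2 in 4. RTCA-AS1 and STAG3L5P-PVRIG2P-PILRB also missed it with DESeq2 and after thinning to equal depth, and RTCA-AS1 with limma-voom. After thinning CCL5, ATF3, IFI6, H1-2, MKI67 and PLAUR missed it too. So did CCL5, PSMB9, THEMIS2 and MTCO2P12 with limma-voom, and MKI67 with RLE scaling.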

How the results depend on the processing

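With the replicate block there were 131 genes lower and 39 higher in the pulse contrast, and 160 of the 164 calls were shared. Over 28 pairs of groups, deviations of same-numbered libraries correlated at -0.05 to 0.088, or at -0.40 to 0.37 over 9245 genes at 10 CPM or more, where 10 of the 28 pairs were over 0.1. Not every pair was, so the numbers were not taken to pair the libraries. None of the 164 genes changed sign under RLE scaling (157 calls shared), no filter (164), a minimum of 1 CPM (153), thinning (129), limma-voom (149), DESeq2 (145) or any fit without a library (118 to 154). With no filter on low counts 93 genes were higher in the pulse contrast, 331 higher under DMSO and 169 above the sum in CPM, and after thinning 106 were higher under DMSO. Without 1 library in turn, the pulse contrast gave 99 to 251 lower and 20 to 66 higher, DMSO levels 156 to 365 lower and 61 to 528 higher, and MPS1i levels 311 to 656 lower and 135 to 370 higher. CPM differences gave 38 to 163 below and 134 to 330 above, with 10 to 21 genes called opposite ways. The pulse effect gave 3364 to 5843 genes in STING and 1433 to 3120 in DKO cells, and the MAVS loss 851 to 1754. The cause was not tested. On the CPM scale the sign reversed for CCL5 (123 CPM), CMPK2 (51.0), HERC5 (26.0), IFIT1 (502), IFIT2 (1517), IFIT3 (620.0), NLRC5 (28.1), OASL (225), PSMB9 (17.7), RP11-326C3.17 (12.1), SAMD9L (92.2), TRIM22 (148) and XAF1 (63.2). Sums of differences and of ratios are not the same quantity. In all 18 genes called opposite ways, these among them, the expected fall in CPM was larger than the DKO level under DMSO. Their upward sign in CPM was then set by the other lines. Depth limits genes with DKO libraries near 0, such as IFNB1.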

Other observations

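Levels in DMSO cells departed from the sum in gene groups outside the interferon response too. Of 38 mitosis genes, 17 were higher in DKO cells than the sum of single differences gives, against 1.04% of all tested genes, and after MPS1i 1 was. MKI67 stood at 0.48 ± 0.066 under DMSO and 0.077 ± 0.067 after MPS1i, KIF20A at 0.56 ± 0.09 and -0.048 ± 0.10, and TPX2, a spindle assembly factor, at 0.41 ± 0.078 and 0.12 ± 0.079. Of 35 matrix genes, 8 were higher under DMSO and 7 after MPS1i, against 1.04% and 1.42% of all tested genes, and 0 were lower. Fibronectin (FN1) stood at 0.62 ± 0.079 and 0.92 ± 0.074, and thrombospondin (THBS1) at 0.78 ± 0.086 and 0.81 ± 0.08, so both departed upward under both treatments, and neither was called in the pulse contrast.

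Of 31 ATF4 targets, 10 were lower under DMSO and 16 after MPS1i, against 1.28% and 2.53% of all tested genes, and 2 were higher under each treatment, against 1.04% and 1.42%. ASNS, asparagine synthetase, stood at -0.62 ± 0.082 and -0.52 ± 0.091, and PSAT1 at -0.35 ± 0.067 and -0.39 ± 0.07. Both genes were below the sum under both treatments, and neither gene was called in the pulse contrast. The libraries that decide the number of genes higher under DMSO, DKO DMSO replicate 1 among them, enter each of these DMSO values.

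Among the largest departures of levels were genes of low abundance that were not called in the pulse contrast. Under DMSO, NEDD9 (2.06 ± 0.49), ARHGDIB (1.74 ± 0.47) and PLCL2 (1.52 ± 0.37) were above the sum, with means of 1.43, 1.08 and 2.05 CPM. GBP4, a guanylate-binding protein, was below it at -2.71 ± 0.79 under DMSO and -1.32 ± 0.34 after MPS1i. The GBP4 value under DMSO was near the threshold (adjusted p = 0.0498, edgeR) and rested on 2 and 3 counts in the DKO libraries. ALDH1L2, a mitochondrial folate enzyme, was above the sum after MPS1i at 1.44 ± 0.40. In the 16 fits that each left out 1 library, the DMSO call of GBP4 missed the threshold in 13, ARHGDIB in 11, PLCL2 in 4 and NEDD9 in 3. The MPS1i call of ALDH1L2 missed it in 7.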
